A study of Mus musculus with 24 samples.

Results

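Cd72 and Fcrl5 encode surface receptors that are best known on B cells, and they were read here in sorted splenic monocytes beside genes that mark B cells. The set was chosen by name: Cd72, Fcrl5, Cd79a, Cd79b, Ms4a1, Fcrl1, Fcrla, Pax5, and Blk, of which 8 of 9 had a value among the 23930 amplicons of the table. Cd79a was not analysed here. The names were picked after the levels of these genes had been seen, so differences of members between groups are given as values with a standard error and without a P value. The question was whether Cd72 and Fcrl5 moved together with B cell genes or without them.

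RNA came from the spleens of untreated C57BL/6 mice of 3 genotypes: WT, Slc29a3-/-, and Slc29a3-/- Tlr7-/-. Slc29a3 encodes a transporter that moves nucleosides out of lysosomes, and Tlr7 encodes an endosomal receptor for RNA and nucleosides. Both mutant genotypes lacked Slc29a3, both alleles were made with CRISPR/Cas9, and the second genotype lacked Tlr7 as well. Splenocytes were first depleted with beads against surface markers of T cells, B cells, NK cells, neutrophils (Ly6G), and erythroid cells (TER-119). CD11b+ cells were then sorted into a Ly6C hi, Fcgr4 low and a Ly6C low, Fcgr4 high fraction, called macrophages by the labels and monocytes by the study. Each of the 6 groups held 4 libraries, 24 in all. The age and sex of the mice are not given in the sources used here, and the transcripts of the sex chromosomes, given with the libraries that stood apart, differed within each group. Nothing in the labels says that each library came from a separate mouse, so every P value given below measures the spread between these libraries, part of which may be technical.

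The fractions carried the marker used to sort them: Fcgr4 ran from 25.97 to 62.5 RPM (reads scaled to 1000000 per library) in Ly6C hi and from 605 to 3017 RPM in Ly6C low libraries. The amplicons of Slc29a3 (40.7 to 413 RPM) and Tlr7 (111 to 627 RPM) were read in every genotype, and these levels check nothing about the deletions, since where the amplicons lie relative to the edits is not given in the sources used here. Several libraries stood apart. WT replicate 4 lay outside the barcodes 11 to 16 that hold the other WT libraries and had lower T and NK cell transcripts than they did among Ly6C hi libraries. In Ly6C hi Slc29a3-/- Tlr7-/- replicate 1, the NK cell gene Klrb1c was read at 174 RPM. In both fractions WT replicate 4 was also the single WT library with Ddx3y, a gene of the Y chromosome (97.0 RPM in Ly6C hi and 197 RPM in Ly6C low), and it had Xist, the RNA of the inactive X chromosome, at 0, whereas the other WT libraries had Xist at 476 to 695 RPM and Ddx3y at 0. Its sex and its barcode cannot be told apart. Slc29a3-/- replicate 1 likewise had Ddx3y at 81.8 RPM in Ly6C hi and 164.5 RPM in Ly6C low, beside no more than 0.08 RPM in the other Slc29a3-/- libraries. Xist and Ddx3y were both read above 50 RPM in 3 libraries, all Slc29a3-/- Tlr7-/-. No library was left out, and results that turn on 1 library are given with and without it.

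CD72 is a C-type lectin-like receptor of B cells whose cytoplasmic tail carries inhibitory motifs (ITIMs) that recruit the phosphatase SHP-1, and Sema4D is one of its ligands. FCRL5 belongs to the Fc receptor-like family, whose members are related to the receptors for the Fc part of antibodies, and in the mouse it is best known on marginal zone and B-1 cells. CD79b is a signaling chain of the B cell receptor, and MS4A1 is CD20, the target of rituximab. BLK is a Src family kinase of B cells, and PAX5 is the transcription factor that holds B cells to their lineage. FCRL1 is a surface receptor of B cells, and FCRLA is a member of the family that stays inside the cell.

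The genes lie at separate places in the mouse genome (mm10, GENCODE vM21), except that Fcrl1 and Fcrl5 are neighbors on the same strand of chromosome 3. Cd72 spans chr4:43446462-43454628 on the minus strand. Fcrl5 spans chr3:87435773-87500678 on the plus strand, and Fcrl1 lies beside it at chr3:87376387-87402934. Because Cd72 and Fcrl5 share a pattern over the groups described below, the 250 bases before their RefSeq starts (GRCm38.p6) are shown. Capitals mark the motif matches that a search found. The Cd72 stretch lies at chr4:43454627-43454876 on the minus strand and that of Fcrl5 at chr3:87435532-87435781 on the plus strand.
Cd72: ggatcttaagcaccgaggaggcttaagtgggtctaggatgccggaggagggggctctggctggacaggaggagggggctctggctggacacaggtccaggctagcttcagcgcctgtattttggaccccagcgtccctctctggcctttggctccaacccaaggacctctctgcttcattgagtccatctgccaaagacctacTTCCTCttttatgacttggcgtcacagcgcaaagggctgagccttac
Fcrl5: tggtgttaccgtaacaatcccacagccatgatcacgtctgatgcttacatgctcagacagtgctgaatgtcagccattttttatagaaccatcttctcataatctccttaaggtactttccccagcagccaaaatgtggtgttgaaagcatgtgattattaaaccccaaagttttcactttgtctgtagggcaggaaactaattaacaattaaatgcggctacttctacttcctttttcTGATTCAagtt
Both strands were searched for 4 motifs: GAGGAA, a core bound by PU.1, TGANTCA of AP-1, CACGTG of E-box factors, and GAAA followed after any 2 bases by GAAA, of interferon regulatory factors. The Cd72 stretch held GAGGAA on the reverse strand at positions -47 to -42 from the start, and 23.25% of 32851 promoter windows of that length held this motif. The Fcrl5 stretch held TGANTCA at positions -11 to -5, against 6.75% of all windows. CACGTG and the motif of interferon regulatory factors, present in 6.02% and 2.98% of all windows, were in neither stretch, and the matches did not overlap each other. A match is a description of letters, and no binding was measured.

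Cd72 was high in a single group. In Ly6C low Slc29a3-/- monocytes the 4 libraries read 101, 193, 147, and 209.8 RPM, with a mean of 163 ± 49.0 RPM (SD, n = 4). In Ly6C low WT they read 14.05, 15.03, 11.8, and 25.4 RPM, and in Ly6C low Slc29a3-/- Tlr7-/- 23.99, 16.3, 16.8, and 12.6 RPM. The lowest Slc29a3-/- library was thus far above the highest library of either other genotype, whereas WT and Slc29a3-/- Tlr7-/- overlapped. In Ly6C hi monocytes Cd72 read 17.4, 18.9, 17.5, and 5.62 RPM in WT and 4.54, 7.75, 2.14, and 5.56 RPM in Slc29a3-/-. The Ly6C hi Slc29a3-/- Tlr7-/- libraries read 15.5, 1.06, 3.72, and 1.203 RPM. Here the high Ly6C low level had no counterpart: Slc29a3-/- had the lowest mean of the 6 groups, 4.997 ± 2.33 RPM (SD, n = 4), and overlapped with WT only through WT replicate 4. Ordered by mean, Ly6C low Slc29a3-/- stood first, and each of the remaining 5 groups overlapped with its neighbor in the order.

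Fcrl5 was high in the same group and graded among the others. The Ly6C low Slc29a3-/- libraries read 67.7, 111, 81.2, and 122 RPM, with a mean of 95.5 ± 25.3 RPM (SD, n = 4). Ly6C low Slc29a3-/- Tlr7-/- libraries read 7.67, 12.8, 15.5, and 15.3 RPM, and Ly6C low WT libraries 3.35, 2.88, 1.61, and 1.99 RPM. None of these 3 groups overlapped, so that Fcrl5, unlike Cd72, was also above WT in the genotype without Tlr7. In Ly6C hi Slc29a3-/- libraries Fcrl5 was read at 0.955, 1.74, 1.27, and 2.22 RPM, which overlapped with the Ly6C low WT range. In Ly6C hi WT it was read at 0.14 RPM in replicate 3 and at 0 in the other 3 libraries, and in Ly6C hi Slc29a3-/- Tlr7-/- at 0.231, 0, 0, and 0.16 RPM. Each of these values lay at or below 3 reads, which correspond to 0.206 to 0.244 RPM in libraries of 12311110 to 14572064 reads (inferred, counting error only), so no fold is given against them. In the plot of Cd72 and Fcrl5 by library, both genes have their highest values in 1 group.

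**Figure D1:**
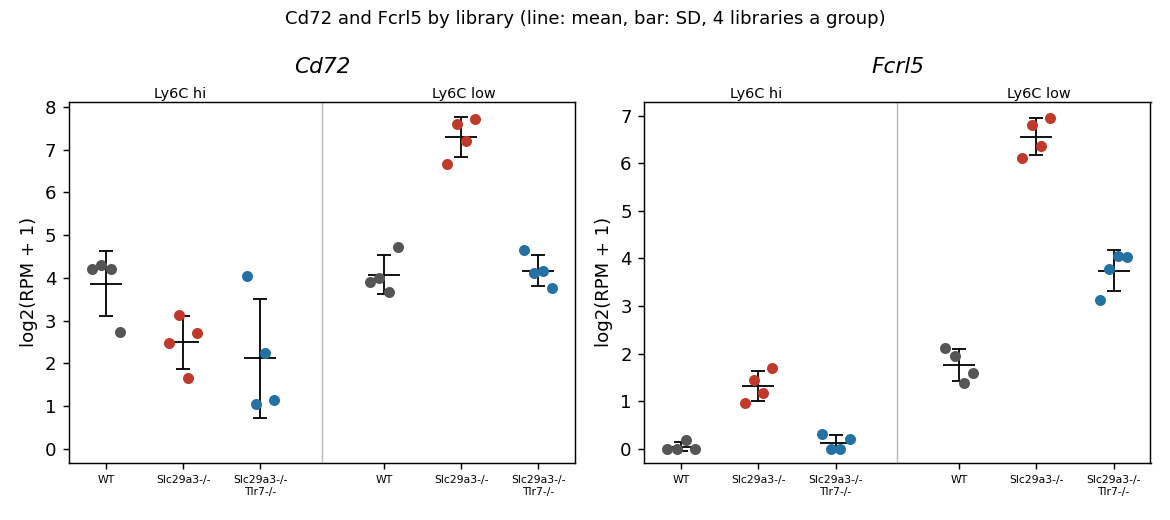
Level of Cd72 (left) and Fcrl5 (right) as log2(RPM + 1) in each of the 24 libraries (points) of the 6 groups, with the mean (line) and the SD (bar). Ly6C low Slc29a3-/- libraries, which read 101 to 209.8 RPM of Cd72 and 67.7 to 122 RPM of Fcrl5, lie above the libraries of the other 5 groups.

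Within the Ly6C low Slc29a3-/- group, both genes put the libraries in the same order: replicate 1 was lowest, followed by 3, 2, and 4. Fcrl5 was read at 0.595 ± 0.051 times the level of Cd72 (SD, n = 4; range 0.554 to 0.669) there. This ratio was 0.162 ± 0.069 in Ly6C low WT and 0.810 ± 0.373 in Ly6C low Slc29a3-/- Tlr7-/- libraries, in which it ran from 0.320 to 1.22. The ratio serves to compare libraries and not the abundance of the genes, since each gene was read through 1 amplicon of its own. Bulk RNA cannot tell more cells that carry a transcript from more transcript per cell, and this holds for each level given here.

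In the fit to all Ly6C low genes, Cd72 was 3.22 ± 0.27 higher on the log2(RPM + 1) scale (SE, 4 against 4 libraries) in Slc29a3-/- than in WT monocytes, or 9.34-fold on that scale. Fcrl5 was 4.79 ± 0.26 higher, or 27.7-fold. Fcrl1 was 0.78 ± 0.19 higher, and its libraries read 69.3, 51.3, 60.9, and 51.6 RPM against 38.9, 31.98, 32.03, and 30.6 RPM in WT, without overlap. Cd79b was 0.35 ± 0.21 higher and overlapped between the groups (35.5, 47.1, 53.0, and 40.8 against 34.8, 32.7, 31.6, and 37.7 RPM). By the call rule of the study, a fold change over 1.5 with an unadjusted P under 0.05, 3 of the 4 members with enough reads to be fitted were called higher and 0 lower, beside 6.15% higher and 7.05% lower among the 10317 genes fitted. The set was chosen with this contrast known, so nothing is read from its share. Leaving out each library in turn kept the difference of Cd72 between 3.08 and 3.44 and that of Fcrl5 between 4.66 and 4.94. Against WT replicate 4 by itself, that of Cd72 was 2.58.

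The other 4 measured members, Fcrla, Ms4a1, Pax5, and Blk, were near the detection limit in Ly6C low monocytes. Ms4a1 read 0.318, 0.24, 0.552, and 0.238 RPM in Slc29a3-/- and 0.14, 0, 0.211, and 2.53 RPM in WT libraries. Blk read between 0.08 and 0.48 RPM in Slc29a3-/- libraries, below its highest value of 2.29 RPM in Ly6C low Slc29a3-/- Tlr7-/- replicate 3. Pax5 reached 2.92 RPM in Slc29a3-/- replicate 3, and the other 3 libraries of that group lay at or under 0.56 RPM. Fcrla lay between 0.239 and 1.02 RPM there and between 0.281 and 0.559 RPM in WT. None of the 4 followed Cd72 and Fcrl5: their Slc29a3-/- and WT libraries overlapped in each case.

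**Figure D2:**
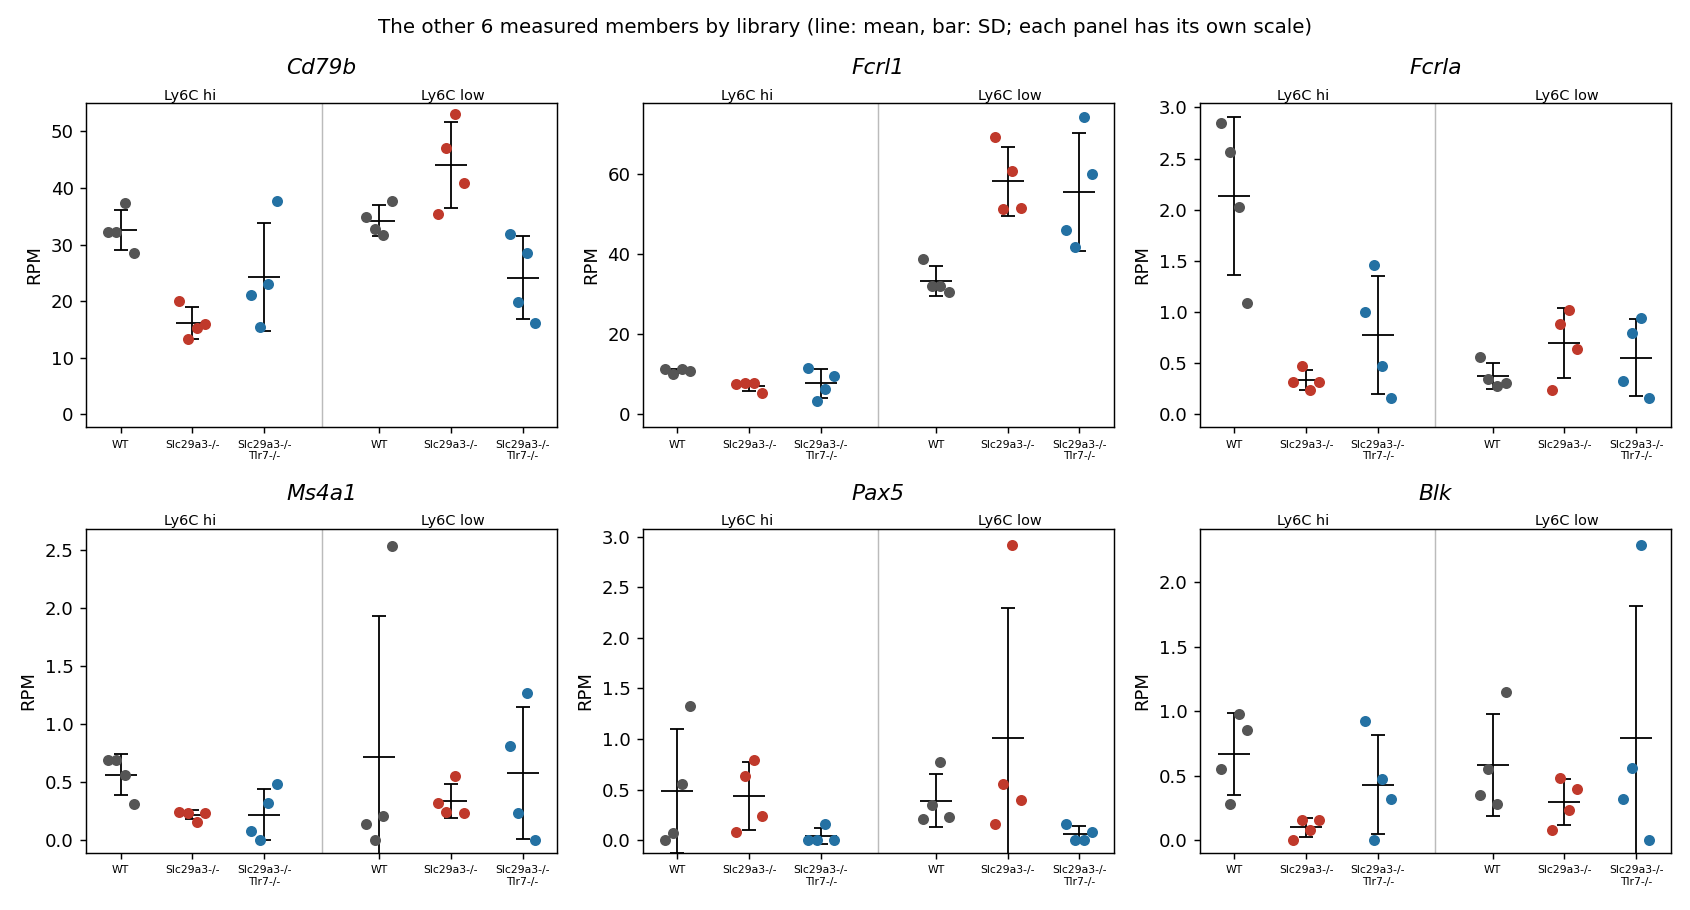
Level in RPM of Cd79b, Fcrl1, Fcrla, Ms4a1, Pax5, and Blk in each of the 24 libraries (points) of the 6 groups, with the mean (line) and the SD (bar, cut off where it would run below the axis); each panel has its own scale. Cd79b and Fcrl1 are read in every group, and Ms4a1, Pax5, and Blk stay at or below 2.92 RPM.

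B cell genes outside the set were taken from a list of 20 genes, of which 17 were measured and 9 were fitted in Ly6C low monocytes. Between Slc29a3-/- and WT, 1 was called higher and 2 lower, with a median of -0.18, beside a median of 0.002 over all genes. Cd22, an inhibitory sialic acid receptor of B cells that was also read at 96.9 to 120 RPM in Ly6C low WT libraries, fell by 1.07 ± 0.20 (SE) with an adjusted P of 0.00802 (limma, Benjamini-Hochberg). It read 50.2, 80.3, 41.4, and 37.2 RPM in the Slc29a3-/- libraries. Cd22 thus went the other way from Cd72 and Fcrl5, both of which were higher in each of these 4 libraries. The remaining calls, Bach2 (0.89, adjusted P of 0.0627) and Siglecg (-1.01, adjusted P of 0.0538), missed the adjusted threshold of 0.05. Ebf1, an early transcription factor of B cells that was read too low to be fitted, was at 0.477, 0.48, 0.868, and 0.079 RPM in the Ly6C low Slc29a3-/- libraries (6, 6, 11, and 1 inferred reads). It was at 0, 0, 0.07, and 0.153 RPM in WT libraries and at 0 in the 4 Slc29a3-/- Tlr7-/- libraries. The mean of Ebf1 was thus highest in the same group as that of Cd72 and Fcrl5, although Slc29a3-/- replicate 4 lay within the range of WT libraries. Fcer2a, the low-affinity IgE receptor, was read at no more than 1.66 RPM. Together, 4 genes taken as defining B cells (Ms4a1, Pax5, Ebf1, and Blk) summed to 1.03 to 4.58 RPM in Ly6C low Slc29a3-/-, 0.699 to 4.06 RPM in WT, and 0.08 to 3.55 RPM in Slc29a3-/- Tlr7-/- libraries, with overlap of the 3 groups.

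The sum of the B cell list gives a scale for Cd72 and Fcrl5 in each library. It was 157 ± 23.4 RPM (SD, n = 4) in Ly6C low Slc29a3-/-, 209 RPM (183 to 265 RPM) in WT, and 301 ± 20.7 RPM in Slc29a3-/- Tlr7-/- libraries. Cd72 was thus read at 1.05 times the sum of the list in Slc29a3-/- (range 0.768 to 1.44), whereas it was at 0.0776 times the sum in WT and at 0.0584 times in Slc29a3-/- Tlr7-/-. Fcrl5 was at 0.617 times the sum (range 0.436 to 0.834) in Slc29a3-/-, at 0.0122 times in WT, and at 0.0422 times in Slc29a3-/- Tlr7-/-. Cd79b per sum went from 0.166 in WT to 0.281 ± 0.009 in Slc29a3-/- and was 0.0805 in Slc29a3-/- Tlr7-/- libraries. In Ly6C low libraries Cd22 alone made up much of the sum, with a mean of 107 RPM in WT and 52.3 RPM in Slc29a3-/-. The order of the sums rested on that gene: without Cd22, an alternative chosen after seeing the data, the sums had means of 104 RPM in Slc29a3-/-, 103 RPM in WT, and 109 RPM in Slc29a3-/- Tlr7-/- libraries. Relative to that sum, Cd72 was at 1.63 times in Slc29a3-/-, 0.164 times in WT, and 0.161 times in Slc29a3-/- Tlr7-/-, and Fcrl5 at 0.967, 0.0269, and 0.117 times in that order. The plot of both genes against the sum of the list shows the 4 libraries apart from the other 20.

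**Figure D3:**
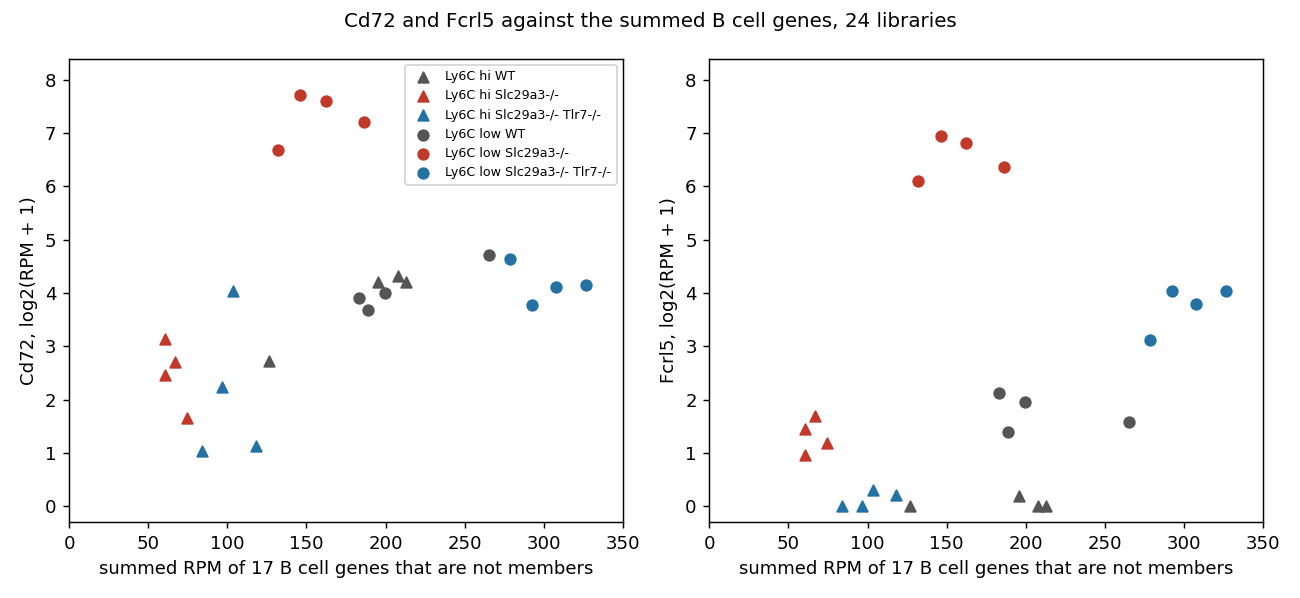
Level of Cd72 (left) and Fcrl5 (right) as log2(RPM + 1) against the summed RPM, on a linear axis, of the 17 measured B cell genes outside the set, 1 point a library (triangles Ly6C hi, circles Ly6C low). The Ly6C low Slc29a3-/- libraries have sums of 132 to 186 RPM, and both genes are higher in them than in Ly6C low Slc29a3-/- Tlr7-/- libraries, which have sums of 278 to 327 RPM.

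In monocytes that lacked both genes, Cd72 was within the WT range and Fcrl5 was above it. Between Ly6C low Slc29a3-/- Tlr7-/- and WT, Cd72 differed by 0.09 ± 0.27 (SE) on the log2(RPM + 1) scale, and Fcrl5 was 1.98 ± 0.26 higher, or 3.95-fold. Fcrl1 was 0.69 ± 0.19 higher, with 45.95, 41.9, 74.3, and 60.2 RPM against 30.6 to 38.9 RPM in WT. Cd79b differed by -0.53 ± 0.21, with 31.9, 19.8, 28.6, and 16.2 RPM, and overlapped with WT through replicate 1 alone. In this comparison 2 of 4 fitted members were called higher and 0 lower, beside 6.08% higher and 14.6% lower of all genes. The call of Fcrl1 was lost once Slc29a3-/- Tlr7-/- replicate 3 was left out (0.54), and Cd79b was called lower without replicate 1 (-0.68) or 3 (-0.63). Against WT replicate 4 by itself, Cd72 was at -0.55. The B cell list held 2 genes called higher and 2 called lower of 9, with a median of 0.30 beside -0.1 over all genes. Cd22 rose by 0.84 ± 0.20 (adjusted P of 0.0271, limma) to 175 to 218 RPM.

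Between the genotypes without Slc29a3, the presence of Tlr7 went with higher levels of both genes. In Ly6C low Slc29a3-/- compared with Slc29a3-/- Tlr7-/- monocytes, Cd72 was 3.13 ± 0.27 (SE) higher on the log2(RPM + 1) scale, or 8.76-fold, and Fcrl5 was 2.81 ± 0.26 higher, or 7.01-fold. Cd79b was 0.88 ± 0.21 higher, without overlap between the groups. Fcrl1, next to Fcrl5 on the chromosome, differed by 0.09 ± 0.19 and overlapped. Of 4 fitted members, 3 were called higher and 0 lower, beside 10.8% higher and 2.92% lower of all genes. The B cell list had 2 genes called higher and 3 called lower of 9 (median 0.39, all genes 0.083, and -0.09 for the list with RLE scaling). Cd22 fell by 1.92 with an adjusted P of 0.000233, Siglecg by 1.48 with 0.0108, and H2-Ob, a subunit of the class II regulator H2-O of B cells, by 1.39 with 0.0251 (limma, Benjamini-Hochberg). The 2 called higher were Pou2af1, by 2.11 (means of 19.8 against 4.07 RPM, adjusted P of 0.117, limma), and Fcer2a, by 0.81 (0.832 against 0 RPM, adjusted P of 0.192, limma). Of 15 fitted genes of the B cell receptor cascade, 1 was called higher and 1 lower. The former was Blnk, by 1.82 (13.7 against 3.43 RPM, adjusted P of 0.0221, limma). These comparisons share libraries with each other, so the values are set side by side and no overlap between them is counted as a result. Of all calls in this comparison 78.7% were higher, and 66.8% with RLE scaling.

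**Figure D4:**
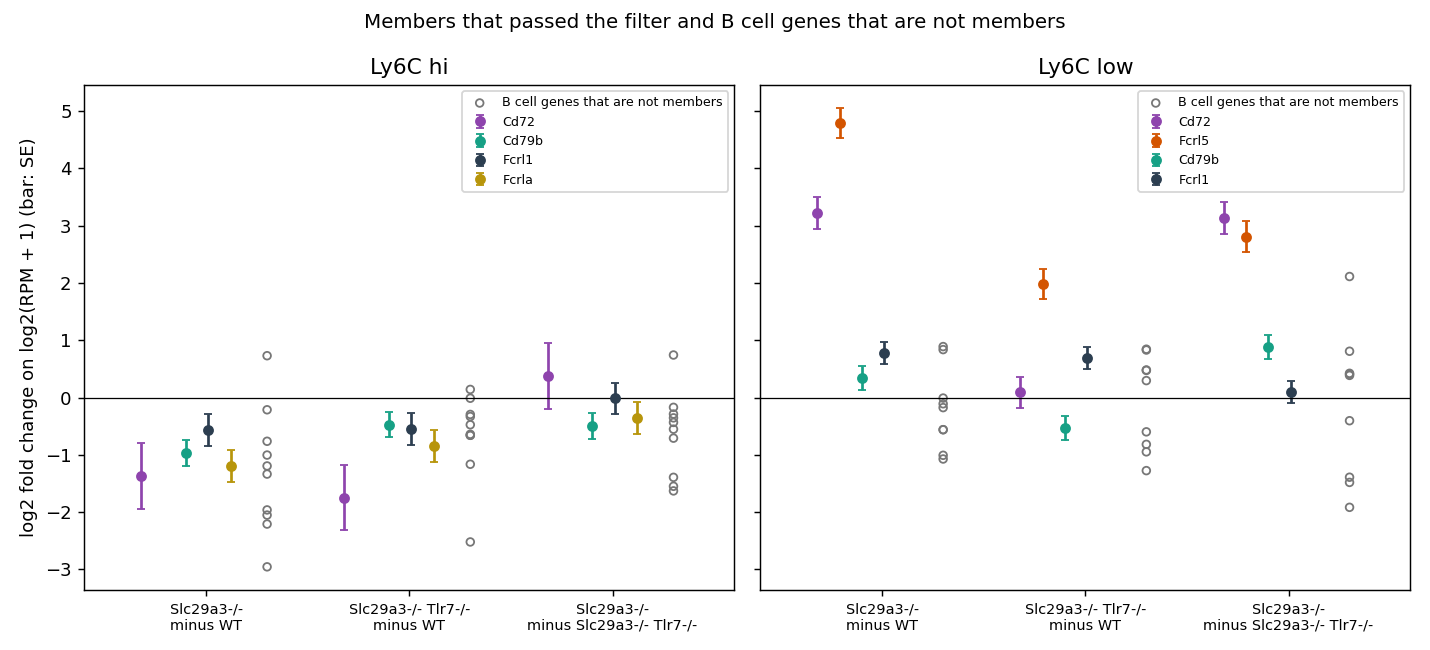
Difference on the log2(RPM + 1) scale (points) with its SE (bars) of the members that could be fitted, in the 3 genotype comparisons of Ly6C hi (left) and of Ly6C low (right) monocytes, with the fitted B cell genes outside the set as open circles. Cd72 lies at 3.22 and 3.13 and Fcrl5 at 4.79 and 2.81 where Ly6C low Slc29a3-/- monocytes are compared with WT and with Slc29a3-/- Tlr7-/-, and Cd72 lies below 0 in both Ly6C hi comparisons with WT.

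In Ly6C hi monocytes Cd72 was lower without Slc29a3, and so were B cell genes. Between Slc29a3-/- and WT, Cd72 differed by -1.37 ± 0.57 (SE), Cd79b by -0.97 ± 0.22, Fcrla by -1.19 ± 0.28, and Fcrl1 by -0.56 ± 0.28 on the log2(RPM + 1) scale. Cd79b read 19.98, 13.4, 15.3, and 16.04 RPM in Slc29a3-/- against 32.2, 32.1, 37.3, and 28.5 RPM in WT libraries. Fcrla read 0.238 to 0.474 RPM against 1.09 to 2.84 RPM, and Fcrl1 5.24 to 7.83 RPM against 10.1 to 11.3 RPM. All 3 were without overlap, as were Ms4a1 (0.159 to 0.239 against 0.312 to 0.694 RPM) and Blk (up to 0.159 against at least 0.278 RPM), both too low to be fitted. Ms4a1 rested on 2 to 3 inferred reads against 4 to 10, and Blk on 0 to 2 against 4 to 14. The share of all genes without overlap was not counted, so nothing is read from the number of members without it. Of 4 fitted members, 0 were called higher and 3 lower, beside 9.38% higher and 17.3% lower of 10561 genes. Fcrla, among those called lower, reached 1 RPM in 4 WT, 0 Slc29a3-/-, and 2 Slc29a3-/- Tlr7-/- libraries. It thus passed the filter mainly through WT, where it was high, which favored a lower call, and nothing is read from the count. Fcrl5 went the other way at low levels and could not be fitted: its 4 Slc29a3-/- libraries were all above the WT libraries, of which 3 had no read. It reached 1 RPM in 3 Slc29a3-/- libraries, too few for the filter.

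The call of Cd72 in that comparison was not stable to single libraries. It was lost without WT replicate 1 (-1.26), 2 (-1.22), or 3 (-1.26) and without Slc29a3-/- replicate 1 (-1.36) or 3 (-1.09), and against WT replicate 4 by itself the difference was -0.24. In that fit a single WT library has no spread of its own and is assumed to vary like the other groups, so that calls are also lost through having fewer libraries. Cd79b was then at -0.80 and Fcrla at -0.65, neither called. With the mean of the B cell list as a covariate the difference of Cd72 turned to 2.03 ± 1.27 (SE), and Cd79b (-0.30) and Fcrla (-0.55) were no longer called. Of 10 list genes fitted, 1 was called higher and 8 lower, with a median of -1.27 beside -0.14 over all genes. The median was -1.50 without WT replicate 4. Among them Pou2af1, a coactivator of B cells, fell by 2.96 ± 0.43 (adjusted P of 0.000411), H2-Ob by 2.21 (0.000133), Ly6d by 2.05 (8.81e-05), and Cd22 by 1.96 ± 0.38 (0.00221), all from limma with Benjamini-Hochberg adjustment. Per sum of the list, Cd72 was 0.0788 ± 0.0408 in Slc29a3-/- and 0.0766 ± 0.0219 in WT libraries (SD, n = 4). This ratio varied between libraries, from 0.0287 to 0.128 in Slc29a3-/- and from 0.0102 to 0.150 in Ly6C hi Slc29a3-/- Tlr7-/-. Thus the means of Cd72 and of the list were both lower in Ly6C hi Slc29a3-/- than in WT monocytes, without a fixed ratio in single libraries. Scaling by TMM moved the median of all genes to 0.017 and the share of calls that were higher from 35.2% to 52.5% (49.8% with RLE), and Cd72 was then at -1.22.

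Transcripts of other lineages moved in the same Ly6C hi comparison. All 6 T cell, 4 NK cell, 4 plasmacytoid dendritic cell, 4 conventional dendritic cell, and 5 fitted plasma cell genes were called lower in Slc29a3-/- than in WT libraries, and all 4 neutrophil genes were called higher. The T cell genes summed to 8.50 to 18.8 RPM in Slc29a3-/- and 50.9 to 189 RPM in WT libraries, and the neutrophil genes to 38682 to 74643 RPM and 12210 to 19639 RPM. The lowest T and NK sums of the WT group belonged to replicate 4, which also had the lowest Cd72. The part of these cells in the Cd72 level was not tested.

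Against WT, Ly6C hi Slc29a3-/- Tlr7-/- monocytes had lower Cd72 by -1.75 ± 0.57 (SE) and lower Fcrla by -0.84 ± 0.28, although both overlapped between the groups. Cd79b (-0.47 ± 0.22) and Fcrl1 (-0.55 ± 0.28) were not called, and their libraries overlapped with WT. Of 4 fitted members, 0 were called higher and 2 lower, beside 3.12% higher and 9.44% lower of all genes. Among those called, Fcrla passed the filter mainly through WT libraries, as above, so nothing is read from the count. Fcrl1 was called lower without Slc29a3-/- Tlr7-/- replicate 1 (-0.76) or 4 (-0.68), and Cd79b without replicate 4 (-0.70). With the B cell list as a covariate neither was called, with Cd72 at 0.26 and Fcrla at -0.46. Against WT replicate 4 alone, the fit with a single WT library, Cd72 was at -0.61 and Fcrla at -0.30, neither called. The list had 5 genes called lower and 0 higher of 10 (3 without Slc29a3-/- Tlr7-/- replicate 2, WT replicate 1, or WT replicate 2, and 2 without WT replicate 3), with a median of -0.56. Of these, Pou2af1 alone passed the adjusted threshold (-2.52, adjusted P of 0.0339, limma).

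Between Ly6C hi Slc29a3-/- and Slc29a3-/- Tlr7-/- monocytes none of the 4 fitted members was called, beside 10.5% higher and 11.9% lower of all genes. Cd72 differed by 0.38 ± 0.57 (SE), Cd79b by -0.50 ± 0.22, Fcrla by -0.35 ± 0.28, and Fcrl1 by -0.02 ± 0.28. With TMM scaling Fcrl1 was at 0.11. Cd72 was called higher once Slc29a3-/- Tlr7-/- replicate 1 was left out (1.02), the library with the highest Klrb1c and, at 15.5 RPM, the highest Cd72 of its group. Cd79b was called lower without Slc29a3-/- replicate 1 (-0.60) or Slc29a3-/- Tlr7-/- replicate 2 (-0.68). The B cell list had 1 gene called higher and 4 lower of 10 (median -0.49, all genes -0.116), with Cd22 lower by -1.63 (adjusted P of 0.00803) and Ly6d by -1.39 (0.00063) in limma. Of all calls 46.8% were higher, against 63.0% with TMM and 59.9% with RLE scaling.

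Between the fractions of 1 genotype, the levels of Cd72 in WT differed by -0.22 ± 0.48 (SE, Ly6C hi minus Ly6C low). In Slc29a3-/- monocytes the difference was -4.81 ± 0.48, a level 28.1-fold lower in Ly6C hi, and in Slc29a3-/- Tlr7-/- it was -2.05 ± 0.48. Fcrl5 in Slc29a3-/- differed by -5.23 ± 0.24, or 37.6-fold. In WT, Fcrl5 was at no more than 0.14 RPM in Ly6C hi and at least 1.61 RPM in Ly6C low libraries. In Slc29a3-/- Tlr7-/- it was at no more than 0.231 RPM and at least 7.67 RPM in that order. Fcrl1 was lower in Ly6C hi in each genotype, by -1.53, -2.87, and -2.77 (SE of 0.24 each) in WT, Slc29a3-/-, and Slc29a3-/- Tlr7-/-. For Cd79b the difference was -0.07 in WT, -1.39 in Slc29a3-/-, and -0.01 in Slc29a3-/- Tlr7-/- (SE of 0.22 each). Fcrla was higher in Ly6C hi in WT, by 1.16 ± 0.24, and differed by -0.32 and 0.16 (same SE) in Slc29a3-/- and Slc29a3-/- Tlr7-/-. Fcrl1 and Fcrl5 were thus higher in the Ly6C low fraction in all 3 genotypes, whereas Cd72 differed between fractions of WT by less than its SE.

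The genes whose profile over the 24 libraries was nearest to that of Cd72 were not B cell genes. Likeness was measured as the root mean square difference between mean-centered log2(RPM + 1) values, among 7492 genes with a mean of at least 10 RPM. For Cd72, whose own spread by this measure was 1.797, they were Slc4a1 (0.842), Cd5l (0.962), Acp5 (0.965), Basp1 (0.995), and Cadm1 (1.022). For Fcrl5, with a spread of 2.296, they were Pecam1 (1.041), Slc4a1 (1.114), Serpinb6a (1.176), Acp5 (1.191), and Fpr1 (1.193). Slc4a1, the anion exchanger of red cells, and Acp5, an acid phosphatase of macrophages and osteoclasts, stood on both lists. Slc4a1 had a mean of 54.8 RPM in Ly6C low Slc29a3-/-, 1.35 RPM in WT, and 3.61 RPM in Slc29a3-/- Tlr7-/- monocytes. Pecam1, an adhesion receptor that also carries ITIMs, had means of 1137, 280.0, and 499 RPM in the same order. Likeness here was a choice by these libraries and carries no test.

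Because Slc4a1 marks red cells, 5 erythroid genes (Klf1, Epor, Alas2, Ermap, and Rhag) and 6 genes of red pulp macrophages were added after the nearest profiles had been seen. The erythroid genes summed to 21.5 to 27.8 RPM in the 4 Ly6C low Slc29a3-/- libraries and to no more than 6.21 RPM in the other 20. Alas2, of heme synthesis, rose by 3.71 ± 0.51 (SE) between Ly6C low Slc29a3-/- and WT (adjusted P of 0.000872, limma), the single gene called of the 3 that could be fitted. Alas2 made up most of the sum in these libraries, at 16.8 to 22.95 RPM, and so was highest in the same group as Cd72 and Fcrl5. Epor, the erythropoietin receptor, was not called (0.19 ± 0.28), and its libraries overlapped between Slc29a3-/- and WT. Within the group the range of the sum, 21.5 to 27.8 RPM, was narrower than that of Cd72. The red pulp macrophage genes summed to 2604 to 2939 RPM in Slc29a3-/- and 1997 to 2448 RPM in WT libraries, and 2 of 6 were called higher, among them Spic, a transcription factor of these cells (1.39 ± 0.28, adjusted P of 0.0114). Relative to Ly6C low Slc29a3-/- Tlr7-/-, all 3 fitted erythroid genes were called higher (median 1.48), beside 10.8% higher and 2.92% lower of all genes. Of these 3, Alas2 alone passed the adjusted threshold (3.64 ± 0.51, adjusted P of 0.00173, limma). Epor had means of 2.04 and 0.779 RPM there. Of 6 red pulp macrophage genes, 3 were called higher and 0 lower in that comparison. The part of either cell type in Cd72 and Fcrl5 was not tested.

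Relatives and partners of the receptors were read as well. Fcrls, Fcrl6, and Fcrlb, the other Fc receptor-like genes measured, summed to at most 2.003 RPM in any library, and 0 of 3 could be fitted. Sema4d, a ligand of CD72, was read at 688 ± 64.6 RPM (SD, n = 4) in Ly6C low Slc29a3-/- and 610 ± 163 RPM in WT monocytes and was not called. Of the 3 phosphatases that bind ITIMs (Ptpn6, Ptpn11, and Inpp5d), 0 were called between these groups. Ptpn6, which encodes SHP-1, had a mean of 1176 RPM in Slc29a3-/- and 1356 RPM in WT. Of 15 fitted genes of the B cell receptor cascade, 3 were called higher and 0 lower (median 0.07), and Syk, a kinase that also serves Fc receptors, rose by 1.16 ± 0.16 (SE, adjusted P of 0.000949, limma), from 269 to 597 RPM.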

How the data were processed

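The authors deposited 1 table of RPM, reads of an amplicon scaled to 1000000 per library, from Ion AmpliSeq Transcriptome Mouse libraries read on an Ion Proton. The methods give Cutadapt, STAR on mm10, HTSeq, and DESeq2 with RLE, but not which step wrote the table. An AmpliSeq value stands for 1 short stretch of a gene. Values of 0, written as 0.0001, were set to 0, and 27 names turned into dates were repaired. The files give no counts. The step between low values put 100.0% of values under 5 RPM within 0.1 of a whole read, which gave 12311110 to 14572064 reads per library and a floor of 3 reads of 0.206 to 0.244 RPM, covering counting error only.

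The filter kept amplicons that reached 1 RPM in 4 or more of a fraction's 12 libraries. A gene near that level can pass through the group where it is high, which favors a call in that direction. As log2(RPM + 1), the 3 genotypes of a fraction were fitted together in limma 3.58.1 (lmFit and contrasts.fit, then eBayes with its intensity trend) under R 4.3.3. Fractions were compared in a model of all 24 libraries, without pairing by replicate number. A fold of a log2(RPM + 1) difference understates the change of low genes. Calls followed the study's rule, and adjusted P values are Benjamini-Hochberg over all genes fitted. The code was tested on simulated data. Figures were drawn with matplotlib 3.10.9, and tables were made with pandas 2.3.3 and numpy 2.4.6 under Python 3.11.15. No pair of replicates agreed within sampling noise (lowest chi-square per gene 6.6). Ly6C hi WT replicates 1, 2, and 3 were at 6.6 to 9.4 against each other and at 89.8 to 93.9 against replicate 4.

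The members, lists, and comparisons were chosen with earlier results of these data known, and the erythroid and red pulp macrophage lists after the nearest profiles were seen. Named genes are the members, fixed examples of B cell genes, up to 4 genes of each other list with the largest change at an adjusted P under 0.05, and the 5 nearest profiles. Other genes of the B cell list, Sema4d, and Ptpn6 were named after their values were seen. Ighm, Ighd, Igkc, and Cd79a were not analysed here, and some other genes are not reported here. Alternatives were TMM and RLE scaling, other filters, a pseudocount of 0.1, other sets of libraries, the replicate number as a block, the B cell list as a covariate, no trend, and, chosen after seeing the data, the B cell sum without Cd22.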

Additional observations from a re-analysis of the deposited data

Results flagged for a closer look

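Of 48 groups of 4 values of a member, 7 held a library far from the other 3, where chance gives about 1 in 20 groups (Dixon test of the largest gap). Cd72 was lowest in Ly6C hi WT replicate 4, at 5.62 RPM, and Fcrl1 in Ly6C hi Slc29a3-/- replicate 4, at 5.24 RPM. Ms4a1 was lowest in Ly6C hi Slc29a3-/- replicate 3, at 0.159 RPM, and highest in Ly6C low WT replicate 4, at 2.53 RPM. Pax5 was highest in Ly6C hi Slc29a3-/- Tlr7-/- replicate 3, at 0.158 RPM, and in Ly6C low Slc29a3-/- replicate 3, at 2.92 RPM. Fcrl5 had its only reads among Ly6C hi WT libraries in replicate 3, at 0.14 RPM. Apart from Cd72, Fcrl1, Ms4a1 in Ly6C low WT, and Pax5 in Ly6C low Slc29a3-/-, these values lie under the floor of 3 reads.

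Between Slc29a3-/- and WT monocytes, 3 members had a difference above 0 in the Ly6C low and below 0 in the Ly6C hi fraction on the log2(RPM + 1) scale. Cd72 was at 3.22 and -1.37, Cd79b at 0.35 and -0.97, and Fcrl1 at 0.78 and -0.56. The differences between the fractions were not tested.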

How the results depend on the processing

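The calls of Cd72 and Fcrl5 in the Ly6C low comparisons held when each library was left out in turn, and those of Ly6C hi rest on fewer reads and on single libraries. Values below are log2(RPM + 1) differences. Leaving out 1 library gave, for Slc29a3-/- against WT, Slc29a3-/- Tlr7-/- against WT, and Slc29a3-/- against Slc29a3-/- Tlr7-/- in that order, Cd72 from -1.75 to -1.09, -2.39 to -1.39, and 0.02 to 1.02 in Ly6C hi and 3.08 to 3.44, -0.07 to 0.31, and 2.99 to 3.34 in Ly6C low. Fcrl5 in Ly6C low ran from 4.66 to 4.94, 1.86 to 2.19, and 2.601 to 2.96. The medians of the B cell list ran from -1.50 to -1.08, -0.68 to -0.44, and -0.60 to -0.44 in Ly6C hi and from -0.40 to -0.06, 0.11 to 0.49, and 0.10 to 0.44 in Ly6C low, and its called genes from 8 to 9, 2 to 5, 4 to 5, 3 to 4, 3 to 5, and 4 to 5. Ly6C hi minus Ly6C low ran from -0.37 to 0.16 (WT), -5.02 to -4.53 (Slc29a3-/-), and -2.70 to -1.70 (Slc29a3-/- Tlr7-/-) for Cd72 and from -5.38 to -5.10 for Fcrl5 in Slc29a3-/-. With the B cell list as a covariate Cd72 in Ly6C hi was at 2.03 and 0.26 against WT, both turned in sign, and at 1.78 between the mutants. Against WT replicate 4 by itself, which is assumed to vary like the other groups, Cd72 was at -0.24 and -0.61 in Ly6C hi and 2.58 and -0.55 in Ly6C low, the list medians were -0.70, -0.086, -0.69, and -0.30, and 5 and 1 list genes were called in Ly6C hi in place of 9 and 5. A pseudocount of 0.1 put Fcrl5 at 5.24 in Ly6C low Slc29a3-/- against WT and at -5.88 between fractions, and the first list median of Ly6C hi at -2.27. Genes with a mean of at least 10 RPM gave that median as -1.58 and 3 called list genes in place of 5 for Slc29a3-/- Tlr7-/- against WT in Ly6C hi and for the mutants in Ly6C low. Without a filter the call of Cd72 in Ly6C hi Slc29a3-/- against WT was lost at the same value, and Fcrl5 was called higher there (1.28) and against Slc29a3-/- Tlr7-/- (1.19). Pax5 was then called higher in Ly6C low Slc29a3-/- against Slc29a3-/- Tlr7-/- (0.74). No filter gave list medians of -0.48 for Slc29a3-/- against WT and -0.18 between the mutants in Ly6C hi, and RLE scaling -0.091 between the mutants in Ly6C low. The cause was not tested. Within a fraction, samples of different genotypes with the same number did not deviate together (24 correlations from -0.19 to 0.16, 4 over 0.1). Ly6C hi and Ly6C low libraries of the same number were not compared in this way. Ddx3y marked the same replicate number in both fractions of WT and of Slc29a3-/-. Whether both fractions of a number came from 1 mouse is not stated, and the comparisons of fractions were unpaired. With the replicate number as a block Cd72 in Ly6C low Slc29a3-/- against WT was at 3.22, and no call of a member changed. The count models edgeR and DESeq2 were not run on the inferred reads.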

Other observations

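Among 11 fitted inhibitory receptors of myeloid cells, which carry ITIMs as CD72 does, 3 were called higher and 1 lower in Ly6C low Slc29a3-/- than in WT monocytes, beside 6.15% higher and 7.05% lower of all genes. Siglece, a sialic acid receptor, rose by 2.13 ± 0.17 (SE) on the log2(RPM + 1) scale (adjusted P of 1.58e-05, limma with Benjamini-Hochberg), from a mean of 71.2 to 316 RPM, and had a mean of 80.9 RPM in Slc29a3-/- Tlr7-/- monocytes. Fcgr2b, the inhibitory Fc receptor, rose by 1.42 ± 0.29 (adjusted P of 0.0139) and Clec4a2 by 1.13 ± 0.28 (0.0356). Cd33 fell by 1.27 ± 0.26 (0.014). Between Slc29a3-/- and Slc29a3-/- Tlr7-/-, 6 of the 11 were called higher and 0 lower, beside 10.8% higher and 2.92% lower of all genes. Of all calls there, 78.7% were higher (66.8% with RLE scaling). Of the 6, Siglece alone passed the adjusted threshold (1.96 ± 0.17, adjusted P of 5.09e-05).

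Of 3 fitted genes of marginal zone and B-1 cells, 1 was called higher and 0 lower in Ly6C low Slc29a3-/- against WT, and in Ly6C hi 0 were called higher and 2 lower. The sums of the 5 measured genes were 3.58 to 8.12 RPM in Ly6C low Slc29a3-/- and 4.53 to 6.29 RPM in WT libraries. Of 4 fitted plasma cell genes, 2 were called higher and 1 lower in Ly6C low Slc29a3-/- against WT, and their sums overlapped, at 74.3 to 456 RPM and 52.6 to 269 RPM. T cell, NK cell, and conventional dendritic cell genes were called lower in 3 of 5, 3 of 4, and 3 of 4 cases there, and 0 were called higher. Of 11 fitted monocyte genes, 2 were called higher and 1 lower, and Fcgr4 rose by 1.83 ± 0.15 (adjusted P of 1.73e-05) to 2323 to 3017 RPM.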
